A study of Mus musculus with 4 samples.

Results

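Oxidative phosphorylation genes encode the nuclear subunits of the mitochondrial respiratory chain and of ATP synthase. They were taken as every gene with a platform symbol that begins Ndufa, Ndufb, Ndufc, Ndufs or Ndufv (complex I), Sdh (complex II), Uqcr (complex III), Cox4 to Cox8 (complex IV) or Atp5 (complex V). That gave 93 of the 22180 genes on the array that had a probe set with 1 symbol. They comprise 78 subunits, 13 assembly factors (Cox7a2l included) and 2 pseudogenes. Where 2 probe sets carried the same symbol, the brighter stood for the gene.

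The study set naive CD4+ T cells of TACI-/- mice against those of wild-type (WT) mice, all on the C57BL/6 strain, with 2 Affymetrix Mouse Gene 2.0 ST arrays per genotype. TACI, encoded by Tnfrsf13b, is a receptor for the cytokines BAFF and APRIL. Cells were sorted as CD62L high, CD44 low and CD25 negative out of pooled spleens and lymph nodes, with no treatment named. The sources used here do not give how the allele was made, the age of the mice or the number of mice behind a pool. The titles call the replicates biological, and p-values measure only the spread between these arrays.

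Complexes I to IV pass electrons from NADH and succinate to oxygen. Complexes I, III and IV pump protons out of the mitochondrial matrix as they do so, and complex V lets the protons back to make ATP. Naive T cells are quiescent and draw much of their ATP from this pathway, and activation is known to raise respiration along with glycolysis.

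Tnfrsf13b was under the low-value filter on every array, at 2.73 and 3.09 log2 units for TACI-/- and 2.95 and 3.02 for WT, so it does not check the labels. The filter was set on each array at percentile 40 of its 1-symbol probe sets and lay between 3.74 and 3.77 log2 units. All 7 measured CD4 T cell markers were above it on every array, 1 had a positive log2 fold change, and the median was -0.13. The 4 measured naive T cell markers were also above it on every array, with 1 positive fold change and a median of -0.07. Of the 2 CD8 T cell markers, Cd8a was under it on every array, and Cd8b1 was above it at 6.11 and 5.73 log2 units for TACI-/- and 6.55 and 6.59 for WT (-0.65, limma adjusted p = 0.327). Of 5 NK cell markers, Klrb1c and Gzma were under it on every array, Nkg7 had a log2 fold change of 0.17, and Klrd1 was at 4.76 and 5.06 log2 units for TACI-/- and 5.79 and 5.76 for WT (-0.87, adjusted p = 0.189). The 10 T cell activation markers had means of 7.12 and 6.95 log2 units for TACI-/- and 6.14 and 5.93 for WT. Of them, 9 had a positive log2 fold change. The adjusted threshold was passed by 3, all higher in TACI-/-, against 0.109% higher among all tested genes. These marker lists were chosen with earlier results of these data known. The 10 measured B cell markers averaged 4.47 and 4.15 log2 units for TACI-/- and 3.97 and 4.15 for WT, all 6 that could be tested had positive fold changes, and Ms4a1 and Blnk were under the filter on every array. Of 7 myeloid markers, 3 were under the filter on every array and 4 could be tested. Positive fold changes were found in 2 of these 4, with 0.71 for Cd68 and -0.49 for Lyz2. The part of activation or of RNA of B, CD8, NK or myeloid cells in the values below was not tested. Fewer cells of a type and less RNA per cell cannot be told apart in sorted bulk samples.

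Promoters are shown first because respiratory chain genes are known for sharing sites of nuclear respiratory factor 1 (NRF1) and of the ETS family factor GABP. RefSeq promoter windows (GRCm38.p6, 300 bases, 250 before to 50 after a start site) matched 76 of the 93 genes. The NRF1 motif was searched on both strands as GCGC, any base, T, then GCGC again, and the ETS motif as CCGGAAG. Each stretch below is the 120 bases before the outermost annotated start of its gene, 5′ to 3′ on the gene's strand, with matches to either motif in capitals. The first 3 belong to the genes of lowest p that have an entry, and the other 3 carry motif matches.
Atp5g1, chr11:96075695-96075814, minus strand: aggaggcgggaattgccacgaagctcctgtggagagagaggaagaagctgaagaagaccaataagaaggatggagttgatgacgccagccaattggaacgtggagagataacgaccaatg
Ndufs5, chr4:123718187-123718306, minus strand: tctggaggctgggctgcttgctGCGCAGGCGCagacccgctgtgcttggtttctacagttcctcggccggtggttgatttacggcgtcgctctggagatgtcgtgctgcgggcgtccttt
Ndufab1, chr7:122101849-122101968, minus strand: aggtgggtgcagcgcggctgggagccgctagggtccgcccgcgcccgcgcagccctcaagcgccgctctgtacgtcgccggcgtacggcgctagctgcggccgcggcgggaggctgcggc
Sdha, chr13:74350241-74350360, minus strand: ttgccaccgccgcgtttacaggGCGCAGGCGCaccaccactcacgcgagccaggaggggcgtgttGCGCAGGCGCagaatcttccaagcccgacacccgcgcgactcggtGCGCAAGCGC
Sdhd, chr9:50603850-50603969, minus strand: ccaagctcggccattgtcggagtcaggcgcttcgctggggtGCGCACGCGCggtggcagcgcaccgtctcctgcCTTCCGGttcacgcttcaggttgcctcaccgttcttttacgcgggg
Cox6a1, chr5:115348959-115349078, minus strand: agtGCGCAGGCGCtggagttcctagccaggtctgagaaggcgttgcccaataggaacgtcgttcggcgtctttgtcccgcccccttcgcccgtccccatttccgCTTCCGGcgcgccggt

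Sdha held 3 NRF1 matches in its stretch and Ndufs5 held 1, while Sdhd and Cox6a1 each held 1 NRF1 and 1 ETS match. The stretches of Atp5g1 and Ndufab1 held neither. Over the whole windows, an NRF1 match was found in 19 of 76 members (25%), against 5.19% of 27025 genes with an entry. An ETS match was found in 22 (28.9%), against 9.93%. The YY1 motif AAGATGG, whose first 3 letters are the last 3 of the ETS motif, was found in 11 (14.5%), against 7.28%. The members' windows were also richer in G and C, with a median of 58.6% against 52.8% over all windows. Median fold changes were near 0 with and without a match. The median, TACI-/- minus WT on the log2 scale, was -0.06 over 18 tested members with an NRF1 match and -0.02 over 53 without. For the ETS motif it was -0.06 over 22 with a match and -0.01 over 49 without.

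No oxidative phosphorylation gene passed the adjusted threshold between TACI-/- and WT naive T cells. Testing required 2 or more arrays at the filter, which left 84 members among 13782 genes. With limma and Benjamini-Hochberg adjustment over all of these, 0 members passed 0.05, against 0.138% of all tested genes (0.109% higher and 0.029% lower in TACI-/-). The lowest adjusted p of a member was 0.271. At an unadjusted p under 0.05 there were 4 members (4.76%), against 8.78% of all tested genes. Of these, 1 was higher in TACI-/- (1.19%, against 4.94%) and 3 were lower (3.57%, against 3.84%), the lower share being close to the background.

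The size of the differences was small beside their error. Members had a median log2 fold change of -0.03 and a range of -0.60 to 0.59, and all tested genes a median of 0.01. Standard errors (SE) of the members ran from 0.13 to 0.31. Fold changes of at least 1.5-fold in size were found in 2 members, Atp5g1 and Ndufs5 (2.38%, against 2.53%). The 95% interval lay inside 1.5-fold either way for 58 members (69%, against 66.7%). It lay inside 2-fold for 82 (97.6%, against 96.1%), and the exceptions were the complex I genes Ndufs5 and Ndufb11, with upper limits of 1.04 and 1.07. TACI-/- and WT arrays were fully separated in 26 members (31%), against 38.7% of all tested genes.

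**Figure D1:**
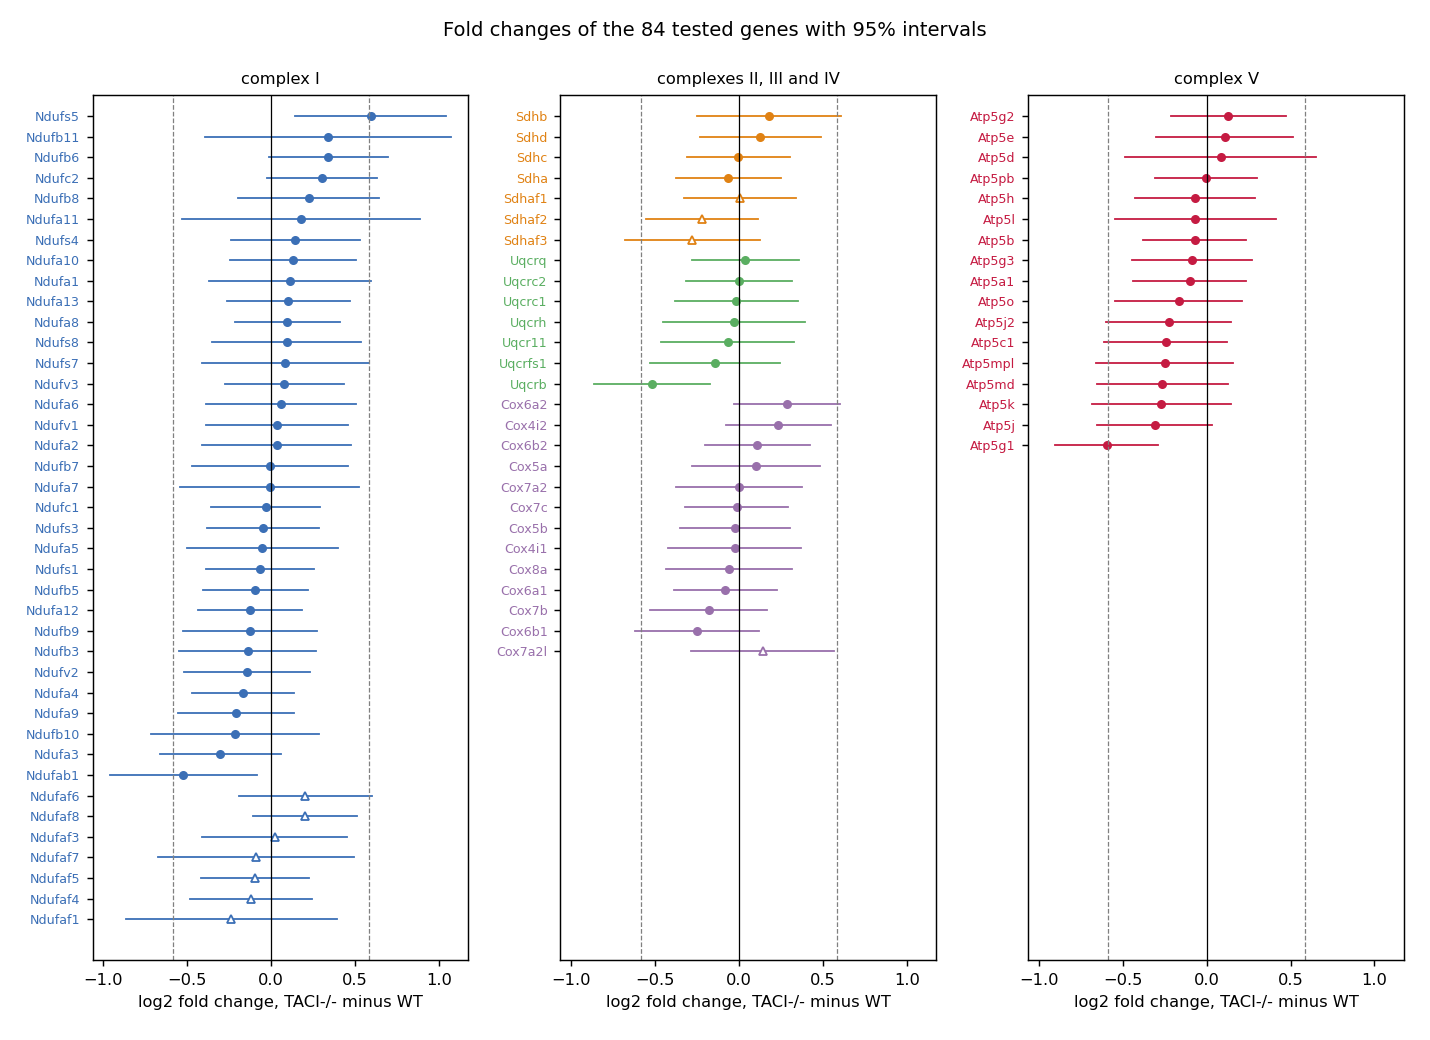
Log2 fold change (TACI-/- minus WT, x axis) of the 84 tested genes (rows), with lines for the 95% interval; circles are subunits, open triangles assembly factors and Cox7a2l, colours the complexes, and dashed lines mark 1.5-fold either way. All intervals cross 0 except those of Ndufs5, Ndufab1, Uqcrb and Atp5g1.

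Tested members spanned 3.60 to 10.61 log2 units, a scale on which different genes' levels cannot be set against each other. The filter kept 33 of 34 complex I subunits, all 4 of complex II, all 7 of complex III, 12 of 16 of complex IV and all 17 of complex V. The 9 members under it on all 4 arrays were Ndufa4l2, Cox7a1, Cox7b2, Cox8b, Cox8c, the assembly factors Ndufaf2 and Sdhaf4, and the pseudogenes Uqcrh-ps1 and Atp5c1-ps. Atp5g1, Ndufab1, Ndufaf1 and Sdhaf3 reached it on both WT arrays and on 1 TACI-/- array.

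**Figure D2:**
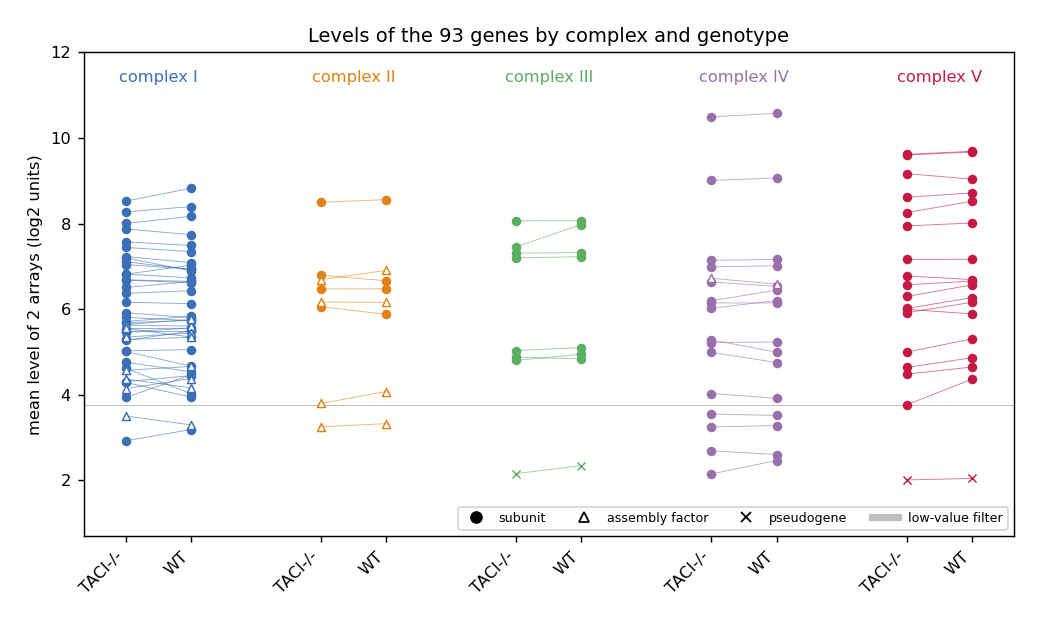
Mean level of 2 arrays (log2 units) of each of the 93 genes in TACI-/- and WT cells, by complex; a line joins the means of 1 gene and the grey line is the low-value filter. Most joining lines are close to flat, and the 9 genes with both means under the filter include 4 complex IV subunits.

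Complex I takes electrons from NADH. Its core subunits, which hold the flavin and the iron-sulfur clusters, had log2 fold changes between -0.14 and 0.09, and all 6 intervals lay inside 1.5-fold. Ndufv1, which binds NADH, read 6.91 and 6.47 on the TACI-/- arrays and 6.61 and 6.69 on the WT arrays. Ndufs1, the largest iron-sulfur subunit, read 6.44 and 6.30 for TACI-/- and 6.47 and 6.39 for WT. In both genes the genotypes overlapped. Ndufs7, next to the quinone site, read 7.74 and 7.41 for TACI-/- and 7.24 and 7.74 for WT. The fold changes of Ndufv2, Ndufs3 and Ndufs8, all iron-sulfur or neighbouring core subunits, were -0.14, -0.05 and 0.09, with overlapping arrays.

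The 27 tested accessory subunits, which surround the core and aid its assembly, had a median log2 fold change of 0.03 and the widest range of the groups. Ndufs5, of the membrane arm, read 4.57 and 4.67 log2 units for TACI-/- and 4.27 and 3.78 for WT. Both TACI-/- arrays were above both WT arrays, and WT replicate 2 was just over the filter. The log2 fold change was 0.59 ± 0.19 (SE, interval 0.14 to 1.04, limma adjusted p = 0.479). Its unadjusted p exceeded 0.05 without TACI-/- replicate 2 or without WT replicate 2, with fold changes of 0.54 and 0.34. Ndufab1, the mitochondrial acyl carrier protein, read 4.15 and 3.73 for TACI-/- and 4.58 and 4.34 for WT. Both TACI-/- arrays were lower than both WT arrays, and TACI-/- replicate 2 was under the filter. Its log2 fold change was -0.52 ± 0.18 (interval -0.96 to -0.08, limma adjusted p = 0.515), and the unadjusted p exceeded 0.05 without TACI-/- replicate 2 (-0.31) or without WT replicate 1 (-0.40).

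Ndufb6 and Ndufc2, also of the membrane arm, came next by p. Ndufb6 read 4.20 and 4.37 log2 units for TACI-/- and 3.83 and 4.06 for WT, a log2 fold change of 0.34 (limma adjusted p = 0.585). Ndufc2 read 7.24 and 7.16 for TACI-/- and 6.81 and 6.98 for WT, with 0.30 (adjusted p = 0.593). Each was higher on both TACI-/- arrays than on both WT arrays. Ndufa3 lay the other way at 8.59 and 8.47 for TACI-/- and 8.69 and 8.97 for WT, with -0.30 (adjusted p = 0.638). Ndufa4, named for complex I but since placed in complex IV, read 8.03 and 7.98 for TACI-/- and 8.19 and 8.15 for WT, with -0.17 ± 0.13 (SE), and the genotypes did not overlap. Ndufs4, whose loss impairs complex I in mice, had 0.15, and Ndufa9, next to the quinone site, had -0.21. The remaining accessory subunits lay between -0.22 for Ndufb10 and 0.22 for Ndufb8, except Ndufb11 at 0.34, and TACI-/- and WT arrays were separated in Ndufa8, Ndufa12 and Ndufb5 of these.

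Replicates of some accessory subunits lay far apart. Ndufb11, which is X-linked, read 5.36 and 4.67 log2 units for TACI-/- and 4.30 and 5.04 for WT, with the largest SE of the members. Ndufa11 read 7.18 and 7.04 for TACI-/- and 6.45 and 7.41 for WT, a log2 fold change of 0.18 with an interval of -0.53 to 0.89. The WT arrays of Ndufa11 enclosed both TACI-/- arrays, and its sign rested on them. The fold change was -0.30 without WT replicate 1 and 0.66 without WT replicate 2, where its unadjusted p was under 0.05.

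Complex II, succinate dehydrogenase, joins the tricarboxylic acid cycle to the chain. Its 4 subunits had log2 fold changes between -0.06 and 0.18, with overlapping genotypes in each. Sdha, the flavoprotein that oxidises succinate, read 8.52 and 8.48 log2 units for TACI-/- and 8.62 and 8.51 for WT. Sdhb, the iron-sulfur subunit, read 6.28 and 5.85 for TACI-/- and 5.79 and 5.97 for WT, with 0.18 ± 0.18 (SE). TACI-/- replicate 1 was the highest array for Sdhb. The membrane anchor Sdhc read 6.50 and 6.45 for TACI-/- and 6.51 and 6.45 for WT. The other anchor, Sdhd, read 6.94 and 6.65 for TACI-/- and 6.63 and 6.70 for WT. Sdha and Sdhd, whose promoters hold the NRF1 matches shown above, had fold changes of -0.06 and 0.13.

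Complex III hands electrons from ubiquinol to cytochrome c. Uqcrb, a small subunit needed for assembly of the complex, read 7.58 and 7.34 log2 units for TACI-/- and 8.03 and 7.93 for WT. Both TACI-/- arrays were lower than both WT arrays, 1.43-fold on average, and all 4 were well above the filter. The log2 fold change was -0.52 ± 0.14 (SE, interval -0.86 to -0.17, limma adjusted p = 0.378). Its unadjusted p exceeded 0.05 without TACI-/- replicate 2 or without WT replicate 1, with fold changes of -0.40 and -0.47. The number of its probe set lies among probe sets of chromosome 5 (8 of the 10 nearest), while Uqcrb is on chromosome 13, so the gene behind this value is uncertain.

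The other complex III subunits were close to 0. Uqcrfs1, the Rieske iron-sulfur protein, read 4.98 and 4.63 log2 units for TACI-/- and 4.90 and 4.99 for WT, and TACI-/- replicate 2 was the lowest array. The core protein Uqcrc1 read 7.46 and 7.16 for TACI-/- and 7.28 and 7.37 for WT. The other core protein, Uqcrc2, read 8.12 and 8.02 for TACI-/- and 8.03 and 8.10 for WT. Neither core protein differed by more than its spread, with fold changes of -0.01 ± 0.15 and 0.00 ± 0.13 (SE). The small subunits Uqcrh, Uqcr11 and Uqcrq had -0.03, -0.07 and 0.04.

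**Figure D3:**
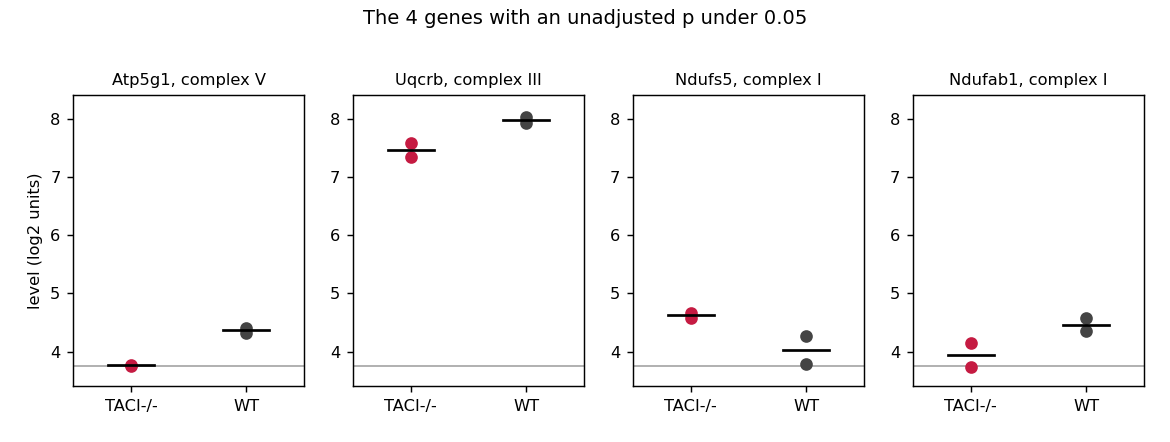
Levels (log2 units) of the 4 genes with an unadjusted limma p under 0.05; each dot is an array, the bar is the mean of 2 and the grey line is the low-value filter. Atp5g1, Ndufs5 and Ndufab1 have arrays beside the filter, and Uqcrb lies far above it.

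Complex IV reduces oxygen to water. The 9 broadly expressed subunits had log2 fold changes between -0.25 and 0.10, and 8 of their intervals lay inside 1.5-fold. Cox4i1, the general form of subunit 4, read 7.33 and 6.95 log2 units for TACI-/- and 7.18 and 7.15 for WT. Cox6a1 read 10.51 and 10.48 for TACI-/- and 10.54 and 10.61 for WT. Cox4i1 arrays of the genotypes overlapped, and both TACI-/- arrays of Cox6a1 were lower, with a fold change of -0.08 ± 0.13 (SE). Cox6b1 read 6.31 and 6.08 for TACI-/- and 6.34 and 6.55 for WT, the widest difference of the broad subunits, at -0.25 ± 0.15 (SE, limma adjusted p = 0.719). Fold changes were 0.10 for Cox5a, -0.02 for Cox5b, 0.00 for Cox7a2, -0.18 for Cox7b, -0.01 for Cox7c and -0.06 for Cox8a.

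Tissue-restricted paralogues replace some of these subunits in other organs, and 3 of 7 passed the filter. Cox6a2, the heart and muscle form of Cox6a1, read 5.22 and 5.34 log2 units for TACI-/- and 5.03 and 4.97 for WT (0.29 ± 0.13, SE, limma adjusted p = 0.61). Cox4i2, the lung form of Cox4i1, read 4.93 and 5.05 for TACI-/- and 4.75 and 4.76 for WT (0.24 ± 0.13, adjusted p = 0.677). Cox6b2, the testis form of Cox6b1, read 4.09 and 3.97 for TACI-/- and 3.91 and 3.93 for WT. All 3 were higher on both TACI-/- arrays, an order seen in 8 members (9.52%) and in 20.5% of all tested genes. The muscle forms Cox7a1 and Cox8b, and Cox7b2 and Cox8c, were under the filter on every array, as was Ndufa4l2, the paralogue of Ndufa4.

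Complex V, ATP synthase, had negative log2 fold changes in 14 of 17 subunits and a median of -0.10. Negative values were found in 51 of 84 members (60.7%) and in 48.2% of all tested genes. Both TACI-/- arrays were lower than both WT arrays in 7 complex V subunits, an order found in 18 members (21.4%) and 18.1% of all tested genes. In the catalytic head, the beta subunit Atp5b read 9.61 and 9.63 log2 units for TACI-/- and 9.67 and 9.71 for WT, and the alpha subunit Atp5a1 had -0.10 ± 0.14 (SE). The turning central stalk held both signs. Its gamma subunit Atp5c1 read 6.08 and 5.76 for TACI-/- and 6.15 and 6.17 for WT (-0.24 ± 0.15), while Atp5d and Atp5e had 0.08 and 0.11.

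The membrane part of complex V, which helps to shape the inner membrane, had negative fold changes in all 5 subunits, with a median of -0.25. That median was -0.43 without TACI-/- replicate 1 and -0.06 without TACI-/- replicate 2, where 4 of 5 were negative. Atp5k read 6.50 and 6.09 log2 units for TACI-/- and 6.51 and 6.63 for WT. Atp5md read 8.42 and 8.09 for TACI-/- and 8.44 and 8.60 for WT. Atp5mpl read 6.23 and 5.81 for TACI-/- and 6.28 and 6.26 for WT. In these 3 genes TACI-/- replicate 1 was just under the WT arrays and replicate 2 was further below. Their limma adjusted p lay between 0.717 and 0.751, and Atp5j2 and Atp5l had -0.23 and -0.07. Without TACI-/- replicate 1 the fold changes of Atp5k and Atp5mpl were -0.48 and -0.46, with unadjusted p under 0.05, and without TACI-/- replicate 2 they were -0.06 and -0.04. Atp5l was at 0.10 without TACI-/- replicate 2 and 0.16 without WT replicate 2. In the peripheral stalk, which holds the head still, Atp5j read 5.07 and 4.93 for TACI-/- and 5.21 and 5.40 for WT (-0.31 ± 0.14, adjusted p = 0.611). The other stalk subunits Atp5o, Atp5h and Atp5pb had -0.17, -0.07 and 0.00.

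The proton-driven ring of complex V is made of subunit c, and Atp5g1, Atp5g2 and Atp5g3 encode the same mature protein. Atp5g1 had the lowest p of the members. It read 3.77 and 3.76 log2 units for TACI-/- and 4.32 and 4.40 for WT, 1.51-fold lower in TACI-/-, with a log2 fold change of -0.60 ± 0.13 (SE, interval -0.90 to -0.29, limma adjusted p = 0.271). TACI-/- replicate 1 lay just over the filter and replicate 2 just under it, where dim probe sets limit the size of a difference. With 1 array left out the fold change ran from -0.64 to -0.55. Those fits share the arrays on which the gene had the lowest p, so they are no separate check. Atp5g2 read 9.27 and 9.07 for TACI-/- and 9.11 and 8.97 for WT (0.13 ± 0.14). Atp5g3 read 6.71 and 6.43 for TACI-/- and 6.69 and 6.63 for WT (-0.09 ± 0.15). Whether the 3 genes differed in fold change was not tested.

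Assembly factors help to build the complexes. The 10 that passed the filter had log2 fold changes between -0.28 and 0.20, with no limma adjusted p under 0.715. For complex II, Sdhaf3 had -0.28 ± 0.17 (SE), Sdhaf2, which aids attachment of the flavin to Sdha, -0.22 ± 0.14, and Sdhaf1 0.01; both TACI-/- arrays were lower for Sdhaf2 and Sdhaf3. For complex I, Ndufaf8 read 5.60 and 5.51 log2 units for TACI-/- and 5.34 and 5.36 for WT, with both TACI-/- arrays higher. Ndufaf1 read 4.54 and 3.75 for TACI-/- and 4.53 and 4.23 for WT, so the TACI-/- arrays enclosed both WT arrays. Ndufaf3, Ndufaf4, Ndufaf5, Ndufaf6 and Ndufaf7 had fold changes of 0.02, -0.12, -0.09, 0.20 and -0.09, and their genotypes overlapped. Cox7a2l, which joins complexes III and IV into supercomplexes, read 6.68 and 6.77 for TACI-/- and 6.36 and 6.81 for WT.

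Replicates of the same genotype differed in a shared direction in more of the members than of all tested genes. TACI-/- replicate 1 was above TACI-/- replicate 2 in 68 of the 84 members (81%), against 57.6% of all tested genes, and the median gap was 0.19 log2 units, against 0.05. WT replicate 1 was above WT replicate 2 in 23 (27.4%), against 50.2%. The gap within TACI-/- was wider than the fold change in 60 members (71.4%, against 57%). The gap within WT was wider in 47 (56%, against 55.5%), a share close to the background. A gap between 2 single arrays varies more than a difference between means, so such gaps alone are no trait of the members. TACI-/- replicate 1 was above TACI-/- replicate 2 in 26 of 33 tested subunits of complex I, 4 of 4 of complex II and 6 of 7 of complex III. The same order was found in 10 of 12 of complex IV and 16 of 17 of complex V. In 5 level bins by mean, from low to high, TACI-/- replicate 1 was the higher in 46.4%, 52.3%, 59.4%, 66.4% and 63.7% of all tested genes. Among the members TACI-/- replicate 1 was the higher in 2 of 4, 5 of 9, 15 of 21, 20 of 22 and 26 of 28. WT replicate 1 was the lower in 3 of 4, 5 of 9, 17 of 21, 15 of 22 and 21 of 28 members of bins 1 to 5. Among all tested genes these shares were 51.9%, 50.3%, 55.2%, 51.3% and 38.7%. The B cell marker mean was highest on TACI-/- replicate 1. The median level of the members was highest on WT replicate 2, at 6.32 log2 units, against 6.28 on TACI-/- replicate 1. The part of B cell RNA in these gaps was not tested.

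**Figure D4:**
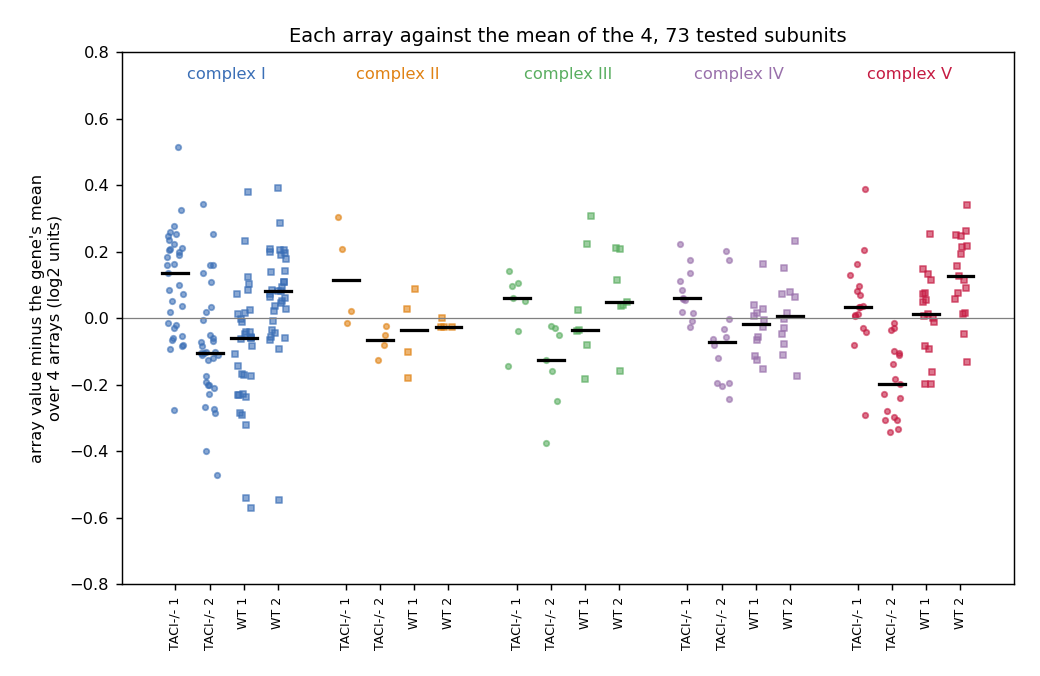
Each array's value minus the gene's mean over 4 arrays (log2 units) for the 73 tested subunits, by complex; circles are TACI-/-, squares WT and black bars the medians. TACI-/- replicate 2 has the lowest median in each complex, -0.20 in complex V.

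The direction of the small shift rested on single arrays. The 51 members with a negative fold change became 65 without TACI-/- replicate 1 and 30 without TACI-/- replicate 2. They were 63 without WT replicate 1 and 38 without WT replicate 2. Members lower at an unadjusted p under 0.05 numbered 7 of 84 without TACI-/- replicate 1 (3.84% of all tested genes were lower in that fit) and 1 without WT replicate 1 (2.12%), against 3 with all arrays. The complex V median was negative in each of these fits, from -0.24 to -0.04.

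A second probe set read the same symbol for 10 members. Those of Atp5d, Atp5e, Atp5g2, Cox7b and Ndufa12 gave fold changes close to the brighter ones. Ndufa8 had 0.10 for the brighter and 0.48 for the dimmer, Atp5h -0.07 and -0.24, Sdhaf1 0.01 and -0.21, and Cox5b -0.02 and 0.10. Ndufa11 had the widest gap, 0.18 and -0.51. The brighter probe sets of Atp5g2, Atp5h, Cox5b, Cox7b and Ndufa11 are numbered among probe sets of a chromosome other than the gene's, so these genes' values are uncertain, like that of Uqcrb. With the dimmer probe set in the place of these 5, 83 members were tested. Cox7b was lost, as its dimmer probe set read 3.55 and 3.54 log2 units for TACI-/- and 3.67 and 3.77 for WT, beside the filter. The complex V median was then -0.17, against -0.10, and the complex I median -0.01, against 0.03. The counts at an unadjusted p under 0.05 were then 1 higher and 3 lower, with 4.95% higher and 3.83% lower among all tested genes.

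**Figure D5:**
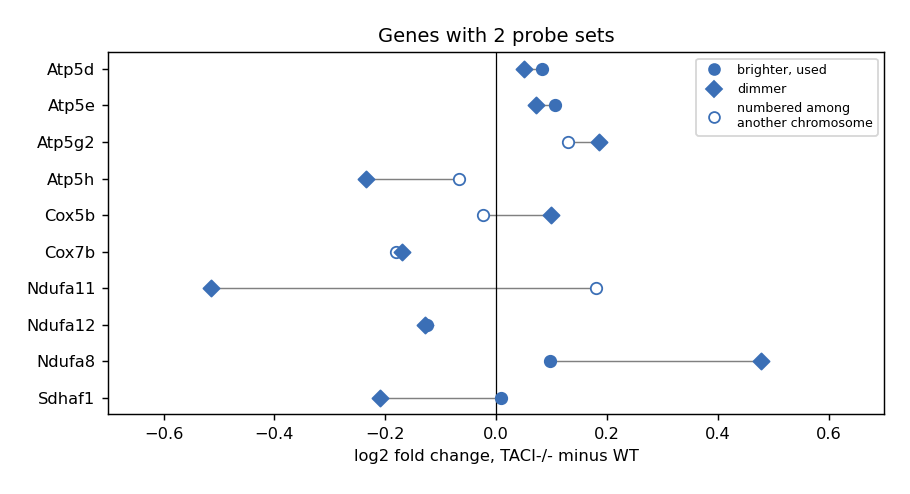
Log2 fold change (TACI-/- minus WT, x axis) of both probe sets of the 10 genes with 2 (rows); circles are the brighter, diamonds the dimmer, and open symbols are numbered among another chromosome. The widest gaps are those of Ndufa11 and Ndufa8.

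Electrons move between the complexes on coenzyme Q and cytochrome c. Of 17 tested genes for electron carriers and coenzyme Q, 0 passed the adjusted threshold in either direction and 1 was higher at an unadjusted p under 0.05 (4.94% of all tested genes were), with a median log2 fold change of 0.01. That gene, Coq10b, encodes a coenzyme Q binding protein. It read 6.30 and 6.56 log2 units for TACI-/- and 5.22 and 5.50 for WT, 2.10-fold higher in TACI-/- (1.07 ± 0.16, SE, limma adjusted p = 0.12), and the genotypes did not overlap. The coenzyme Q genes Coq2 and Coq9 had -0.24 and 0.27.

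Assembly factors named outside the symbols above had a median of -0.08 over 29 tested genes. None passed the adjusted threshold (limma), and 2 were lower and 0 higher at an unadjusted p under 0.05, against 3.84% lower and 4.94% higher among all tested genes. These were Cox16 and Cox20. The list held 20 negative and 9 positive fold changes (48.2% of all tested genes were negative), with 0.23 for Sco1 and 0.16 for Cox18. Cox16 read 6.48 and 6.20 log2 units for TACI-/- and 6.76 and 6.74 for WT (-0.41 ± 0.15, SE, limma adjusted p = 0.54). Cox20 had -0.44 ± 0.17 (adjusted p = 0.557), and the copper chaperone Cox17 had -0.36 ± 0.15 (adjusted p = 0.583).

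Pyruvate dehydrogenase and the tricarboxylic acid cycle feed the chain with NADH and succinate. Their 17 tested genes had a median log2 fold change of 0.01 and a range of -0.24 to 0.26, and 0 had an unadjusted limma p under 0.05. Those of lowest p were Suclg1, Idh3b and Dld, with -0.24, -0.24 and -0.16. Among 7 tested carriers and inhibitors of ATP synthesis, 0 had an unadjusted p under 0.05 and the median was 0.08. The channel Vdac1 had 0.29, the ADP/ATP exchanger Slc25a4 0.33 and the phosphate carrier Slc25a3 0.11.

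Regulators of mitochondrial biogenesis, 13 of 14 tested, had a median of -0.02, and 0 had an unadjusted limma p under 0.05. Polrmt, the mitochondrial RNA polymerase, read 5.52 and 5.37 log2 units for TACI-/- and 5.13 and 5.19 for WT (0.29 ± 0.13, SE). The coactivator Ppargc1b had -0.25 and Myc -0.20, and Ppargc1a was under the filter on all arrays. The factors behind the promoter motifs were close to 0, with 0.13 ± 0.15 for Nrf1, -0.11 ± 0.14 for Gabpa and 0.03 ± 0.13 for Yy1.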

How the data were processed

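The authors deposited 1 log2 value per probe set and array, and all 4 columns were used. The submitters' processing notes name RMA and Partek, with neither version nor role. That the base is 2 was taken from the values and is not stated. Of 41345 probe sets, 23521 had 1 symbol in the platform annotation. The 10 with several symbols, at least 1 of which begins with a listed prefix, were not used. A gene with no other probe set is therefore not among the members. RefSeq tables (GRCm38.p6) gave chromosomes and promoters.

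All 13782 genes that passed the filter entered a single limma 3.58.1 fit (R 4.3.3) with genotype as its one explanatory variable, and two-sided p-values were adjusted by Benjamini-Hochberg over all of them. Fold changes subtract WT from TACI-/-, and 95% intervals use 6.59 degrees of freedom. The number of arrays limits the precision. The procedure was run on simulated data with noise drawn for each gene alone. Those data hold no shift shared by the genes of an array, so they do not cover the shared replicate gaps described above. Fits without an array assume that the lone sample varies like the other genotype.

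Named by rule were the lowest p per complex and pathway list (up to 4 and 3), core subunits, paralogues, members with 2 probe sets, assembly factors and members under the filter. Other members, the promoters shown, Nrf1, Gabpa and Yy1 were picked with their values in view. The members and lists were chosen with earlier results of these data known. Alternatives covered the filter, normalization, probe sets, variance model, replicate block and each array left out.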

Additional observations from a re-analysis of the deposited data

How the results depend on the processing

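The number of members past an adjusted p of 0.05 was 0 in every alternative fit (limma), and Atp5g1, Ndufs5, Ndufab1 and Uqcrb, the members with an unadjusted p under 0.05 on all arrays, kept their sign wherever tested. Of the members that reached it only with 1 array left out, Ndufa11, Ndufaf1 and Ndufb10 did not, with fold changes of -0.30, 0.16 and 0.08 in one fit and 0.66, -0.63 and -0.51, with unadjusted p under 0.05, in another. Without moderation of the variance 1 of those 4 kept an unadjusted p under 0.05, and Ndufs5, Ndufab1 and Uqcrb did not. With the filter required on all 4 arrays, 2 members were higher and 1 lower at an unadjusted p under 0.05, against 1 and 3. Among all genes tested in that fit, 5.06% were higher and 4.02% lower. Atp5g1 and Ndufab1 are then not tested, and Ndufb6 is the added higher one. An intensity trend gave 2 higher and 4 lower, with Ndufc2 and Ndufa3 added, against 4.68% higher and 4.17% lower among all tested genes. Leaving out 1 array gave 1 higher in each fit and 1 to 7 lower, against 3.11% to 4.66% higher and 2.12% to 3.84% lower among all tested genes. Median log2 fold changes without 1 array ran from -0.098 to 0.052 over the members, -0.088 to 0.15 for complex I, -0.030 to 0.15 for complex II, -0.14 to 0.051 for complex III, -0.080 to 0.086 for complex IV and -0.24 to -0.042 for complex V. A further quantile normalization left 40 members negative, against 51. Over all tested genes, 19 passed the adjusted threshold, against 3 with no filter, 35 with the filter on all arrays, 46 with the trend, and 0 without moderation (986 at an unadjusted p under 0.05) or without any 1 array (721 to 1145). The own-chromosome probe sets were chosen after seeing the data. The cause of the other shifts was not tested.

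The replicate block (replicate number as a term) gave 1 higher and 3 lower members, against 4.52% higher and 3.69% lower among all tested genes. The numbers are shared only as numbers, and same-numbered arrays did not deviate together (r = -0.03 over all tested genes and -0.18 over the members).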

Other observations

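Chromosome 11, which carries Tnfrsf13b, holds 4 members, and they had no common direction. Their log2 fold changes, TACI-/- minus WT, were -0.60 for Atp5g1, -0.07 for Atp5h, 0.04 for Uqcrq and 0.20 for Ndufaf8. The X chromosome holds 3, with 0.34 for Ndufb11, 0.11 for Ndufa1 and -0.18 for Cox7b. The values of Atp5h and Cox7b come from probe sets numbered among another chromosome. Their dimmer probe sets, numbered among the gene's own, gave -0.24 and -0.17. Ndufa1 read 6.02 and 5.81 log2 units for TACI-/- and 5.54 and 6.07 for WT, so the WT arrays enclosed the TACI-/- arrays.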
